A study of Gallus gallus with 3 samples.

Results

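The F1 and F5 follicles bracket the preovulatory growth of the hen's follicle, and their granulosa cells are compared here across all genes. Granulosa cells form the layer around the oocyte inside the follicle wall. A laying hen carries a hierarchy of yolk-filled follicles, in which F1 is the largest and the next to ovulate and F5 lies several places behind it. In birds the granulosa layer is the main source of progesterone before ovulation. Luteinizing hormone (LH) acts on it through a receptor that signals by cyclic AMP (cAMP), and the response feeds cholesterol into the steroid pathway. The follicle-stimulating hormone receptor and anti-Müllerian hormone belong to earlier growth. Inhibin and activin subunits, WNT ligands and SMAD proteins are among the signals that granulosa cells exchange and read.

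Each stage is 1 library of granulosa cells from the ovary of chickens (Gallus gallus), labelled as natural and with no treatment given. The F5 library came from hens whose ages are labelled 10 to 16 months, the F1 library from hens of 10 to 17 months, and a library from follicles of 6 mm (hens of 10 to 15 months) is shown beside them for scale. The number of hens or follicles behind a library, and whether they were pooled, are not given in the sources used here. Granulosa layers were taken off the follicles, messenger RNA was captured by its poly-A tail from at least 3 µg of total RNA with an integrity value above 8, and complementary DNA was primed with random hexamers. Of 19309 genes with a value, 11758 had an FPKM (a read count normalised to gene length and to the library's total) of 1 or more in F5 or F1 and are the genes compared, and 7551 fell below that level in both. All differences are F1 minus F5 on the log2(FPKM + 1) scale, a difference of 1 or more is called 2-fold and one of 2 or more 4-fold, and ratios are of the FPKM values themselves. With 1 library a stage there is no replicate, so no difference below was tested against the spread between hens, and stage cannot be told apart from library or from the labelled ages. Numbers in brackets after a ratio are exact 95% intervals for the counting of reads only.

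The libraries held 14137511 reads in F5 and 14086626 in F1, recovered from the steps of the FPKM values, so depth was nearly equal. Genes at an FPKM of 1 or more numbered 11432 in F5 and 10283 in F1, against 12070 in the 6mm library. The granulosa label was checked against 12 markers, and all 12 were measured. Their summed FPKM was 21151 in F5 and 106304 in F1, of which the egg coat gene ZP3 alone held 13094 in F5 and 97522 in F1. At 2-fold, 4 markers were higher in F1, 3 lower and 5 between. FOXL2, a transcription factor that defines granulosa cells, was at an FPKM of 675, 967 and 1646 in 6mm, F5 and F1. Markers of other cells had far lower sums. The theca and smooth muscle list summed to an FPKM of 78.1 in F5 and 122 in F1, against 1098 in 6mm. These sums run over its 20 genes with a value, of which 9 were measured. Of those 9, 6 were 2-fold lower in F1 and 1 was higher (median -1.14), against 22.9% and 5.09% of all genes. The higher F1 sum is thus not shared by most measured members. The 14 endothelial markers with a value, 5 of them measured, summed to 75.04 in F5 and 141 in F1. The F1 sum was mostly CLDN5 (5.87 in F5 and 108 in F1). At 2-fold 1 of the 5 was higher in F1 and 1 lower, and 4 lay below 0 (median -0.91). The endothelial receptor KDR, below the filter, stood at 0.00914 in F5 and 0.00917 in F1. The 22 leukocyte markers with a value, 6 of them measured, summed to 62.7 in F5 and 143 in F1. Most of that was CD74 (40.5 in F5 and 133 in F1). Of the 6, 1 was 2-fold higher in F1 and 1 lower, and 4 lay below 0 (median -0.50). The pan-leukocyte marker PTPRC, below the filter, was at 0.392 in F5 and 0.0179 in F1. The 18 oocyte and germ cell markers with a value, 9 of them measured, summed to 59.1 in F5 and 4.25 in F1. The 15 surface epithelium markers with a value, 6 of them measured, summed to 64.4 in F5 and 10.1 in F1. No erythrocyte marker reached the filter. The oocyte list holds ZP2 and ZP4, and the part of other cells in the differences below was not tested. In these bulk libraries fewer cells of a type and less RNA per cell cannot be told apart.

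Of the 11758 genes, 599 were at least 2-fold higher in F1 (5.09%) and 2697 at least 2-fold lower (22.9%), while 8462 lay between. At 4-fold, 168 genes were higher (1.43%) and 612 lower (5.2%). Counted apart from these calls over all 11758 genes, the whole counting interval of the FPKM ratio lay past 2-fold higher for 519 genes. It lay past 2-fold lower for 2217. The median gene stood at -0.53, the 5th percentile at -2.03 and the 95th at 1.01, and 78.1% of genes lay below 0. Lower genes made up 81.8% of those past 2-fold with the values as deposited. That share depends on scaling. It was 86.2% with the libraries scaled to the same sum of FPKM. It was 74.4% with the read totals taken without the genes among the 10 most abundant of either library. It came to 52.5% after median-ratio scaling, 51.0% after trimmed-mean scaling and 48.0% with the median gene set to 0. These scalings moved the median of all genes by -0.13, 0.15, 0.54, 0.56 and 0.53. List medians are therefore to be read against the median of all genes, -0.53, and list counts against the shares of 5.09% and 22.9%, and small negative differences are not read as lower expression. Under all 5 other scalings, 545 of the 599 higher genes (91.0%) and 1101 of the 2697 lower genes (40.8%) kept a 2-fold difference.

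**Figure D1:**
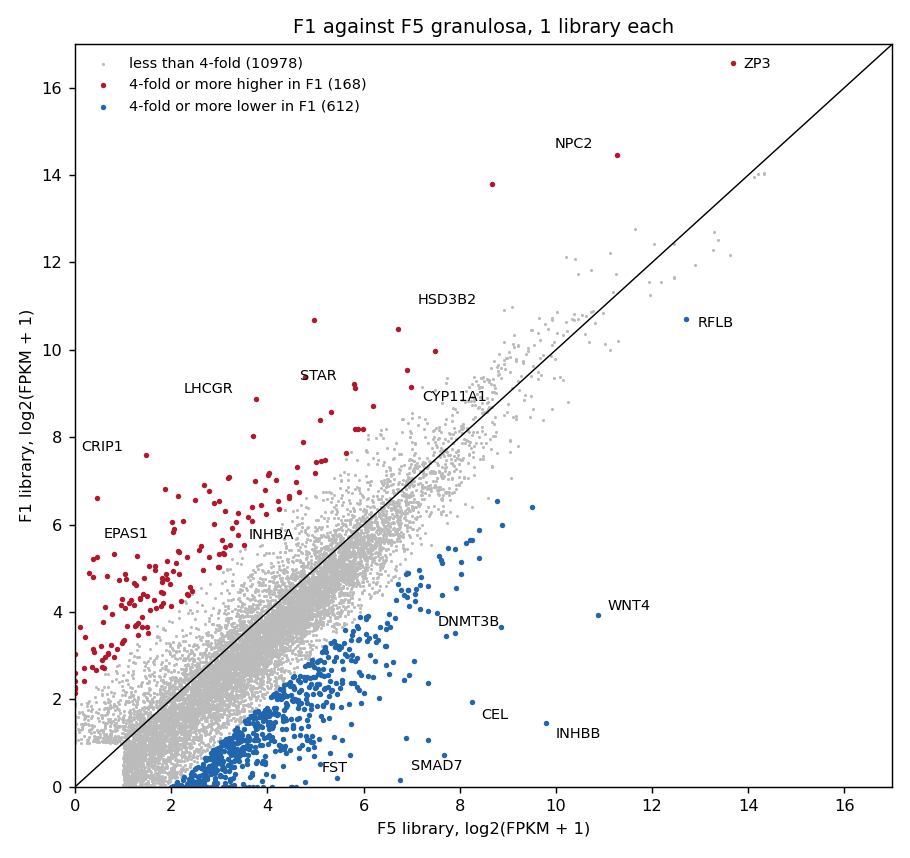
Each point is 1 of the 11758 measured genes, with log2(FPKM + 1) in the F5 library on the x axis and in the F1 library on the y axis. Red points are 4-fold or more higher in F1 (168 genes), blue points 4-fold or more lower (612), grey points the rest, and the line marks equal values. ZP3 and NPC2 stand above the line at the abundant end, and INHBB and WNT4 lie far below it.

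The difference depended on how abundant a gene was. Among 3346 genes with a mean FPKM of 3 to 10 the median was -0.59, in the class of 100 to 300 it was -0.15, and in the class of 300 to 1000 it was 0.42 (153 genes, 19 higher and 12 lower at 2-fold). The F1 library was also more concentrated in a few transcripts. In F5 the 157 most abundant genes made up 50% of all FPKM, in F1 the first 50 did. The leading transcript held 3.45% of FPKM in F5 and 15.0% in F1, where it was ZP3. FPKM values are scaled by the read total, of which ZP3 took 13.4% in F1. Taking the 10 leading genes of F5 and the 10 of F1, which overlap in part, out of both totals moved the median gene by 0.15. It lay 0.53 below 0 as deposited, and what lies behind that was not tested.

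**Figure D2:**
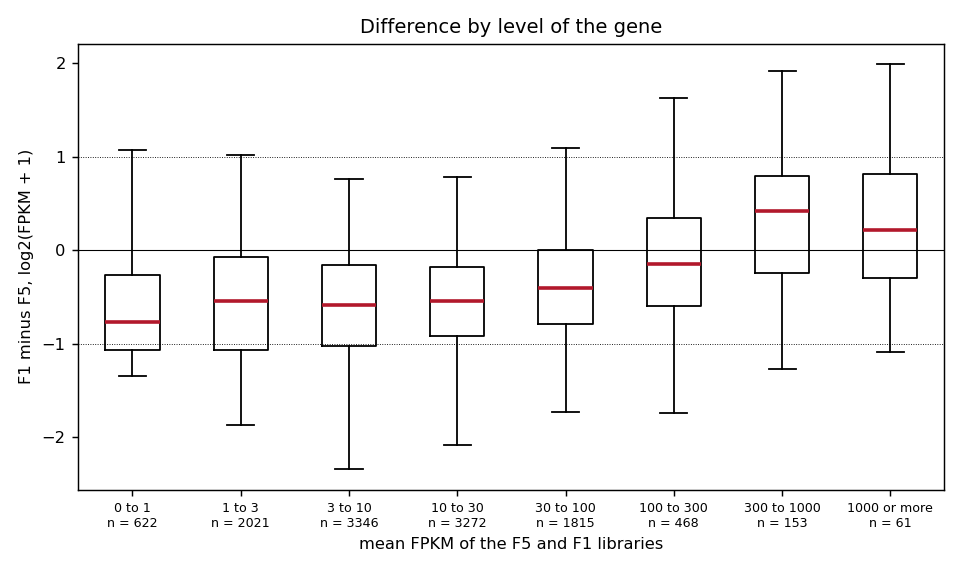
The F1 minus F5 difference of log2(FPKM + 1) on the y axis, by classes of the mean FPKM of both libraries on the x axis. Boxes span the quartiles with the median in red, and whiskers the 5th to 95th percentiles. The medians lie below 0 up to a mean FPKM of 300 and above 0 beyond it.

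The egg coat genes went in opposite ways. ZP3, a glycoprotein of the perivitelline layer that granulosa cells of birds secrete, had an FPKM of 5011, 13094 and 97522 in 6mm, F5 and F1, which is 7.45-fold higher in F1 (7.42 to 7.48). ZPD, another component of that layer, was at 42.4, 1181 and 4439 in 6mm, F5 and F1 (3.76-fold higher, 3.70 to 3.82). ZP2 and ZP4, which belong to the same family, were lower in F1. ZP2 had an FPKM of 183, 33.4 and 0.443 in 6mm, F5 and F1, 75.3-fold lower in F1 (46.2 to 132). ZP4 stood at 13.2, 2.88 and 0.0849 in 6mm, F5 and F1. ZP3 and ZPD were thus higher at each later stage, and ZP2 and ZP4 lower at each later stage. ZP1, below the filter in F5 and F1, had 11.2, 0.0488 and 0.0245 in 6mm, F5 and F1. ZP2 and ZP4 are also on the oocyte list, whose 9 measured markers all lay below 0, 7 of them 2-fold lower. Another marker of that list, BMP15, was at 18.3, 5.61 and 0.193 in 6mm, F5 and F1. The part of oocyte transcripts in the ZP2 and ZP4 values was not tested.

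Among the hormone receptors LHCGR, ADCYAP1R1 and GHR were higher in F1 and FSHR was lower. Of 7 measured receptors for gonadotropins and the peptides VIP and PACAP and related ligands, 3 were 2-fold higher and 1 lower, with a median of 0.56. Under scaling to the same sum of FPKM 2 were higher and 1 was lower. Under median-ratio scaling, trimmed-mean scaling and centring 4 were higher and none was lower, so FSHR was then below 0 but within 2-fold. LHCGR, the LH receptor, had an FPKM of 9.58, 12.6 and 472 in 6mm, F5 and F1, which is 37.6-fold higher in F1 (34.1 to 41.5). FSHR, the receptor of follicle-stimulating hormone, was at 31.5, 42.4 and 16.1 in 6mm, F5 and F1 (2.63-fold lower, 2.42 to 2.86). F5 thus resembled the 6mm library in LHCGR, and the difference lay on the F1 side. ADCYAP1R1, the PACAP receptor, which like LHCGR acts through cAMP, stood at 0.273, 0.535 and 16.2 in 6mm, F5 and F1 (30.3-fold higher, 17.5 to 57.5). The growth hormone receptor GHR, at the measured 1 of its 2 entries, was at 5.85 in F5 and 12.97 in F1, and the prolactin receptor PRLR had 1.08 in F5 and 1.48 in F1.

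Of 8 measured phosphodiesterases that break down cAMP or cGMP, 1 was higher in F1 and 2 were lower, with a median of -0.18. The higher one was PDE4D, an enzyme specific for cAMP, which had an FPKM of 0.983, 3.16 and 59.0 in 6mm, F5 and F1 (18.7-fold higher, 15.8 to 22.2). PDE7B and PDE10A, which also hydrolyse cyclic nucleotides, were lower in F1, at 6.40 in F5 and 1.22 in F1 and at 3.57 in F5 and 0.424 in F1. Among the 12 measured genes of cAMP synthesis and protein kinase A, 1 was higher and 2 were lower (median -0.60, near that of all genes). ADCY9, an adenylate cyclase, was the higher one at 40.9 in F5 and 102 in F1, and PKIA, the inhibitor peptide of protein kinase A, was among the lower ones at 6.09 in F5 and 0.699 in F1, which is 8.72-fold lower (4.19 to 21.0). GRK5, a kinase that desensitises G protein-coupled receptors, was at 0.105, 1.45 and 8.59 in 6mm, F5 and F1 (5.94-fold higher, 4.93 to 7.20). Regulators of G protein signalling (RGS) shorten the signal of such receptors, and of 26 measured regulators and G protein subunits 7 were lower, against 22.9% of all genes, and 1 was higher (median -0.70). Under median-ratio scaling 4 were lower and 3 higher. RGS5 stood at 4.14 in F5 and 0.0442 in F1, RGS16 at 3.63 in F5 and 0.317 in F1 and RGS3, the most abundant of these 3 in F5, at 50.1 in F5 and 18.2 in F1. RGS2 went the other way, at 0.487 in F5 and 1.79 in F1 from 12 and 44 reads, a difference of 0.91. Of the 26 members 21 lay below 0 and 5 above. RASD1, a small GTPase known from rodents as inducible by hormones, had an FPKM of 1.64, 26.6 and 661 in 6mm, F5 and F1 (24.8-fold higher, 22.9 to 26.9). The orphan adhesion receptor ADGRD2 was at 5.42 in F5 and 119 in F1.

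**Figure D3:**
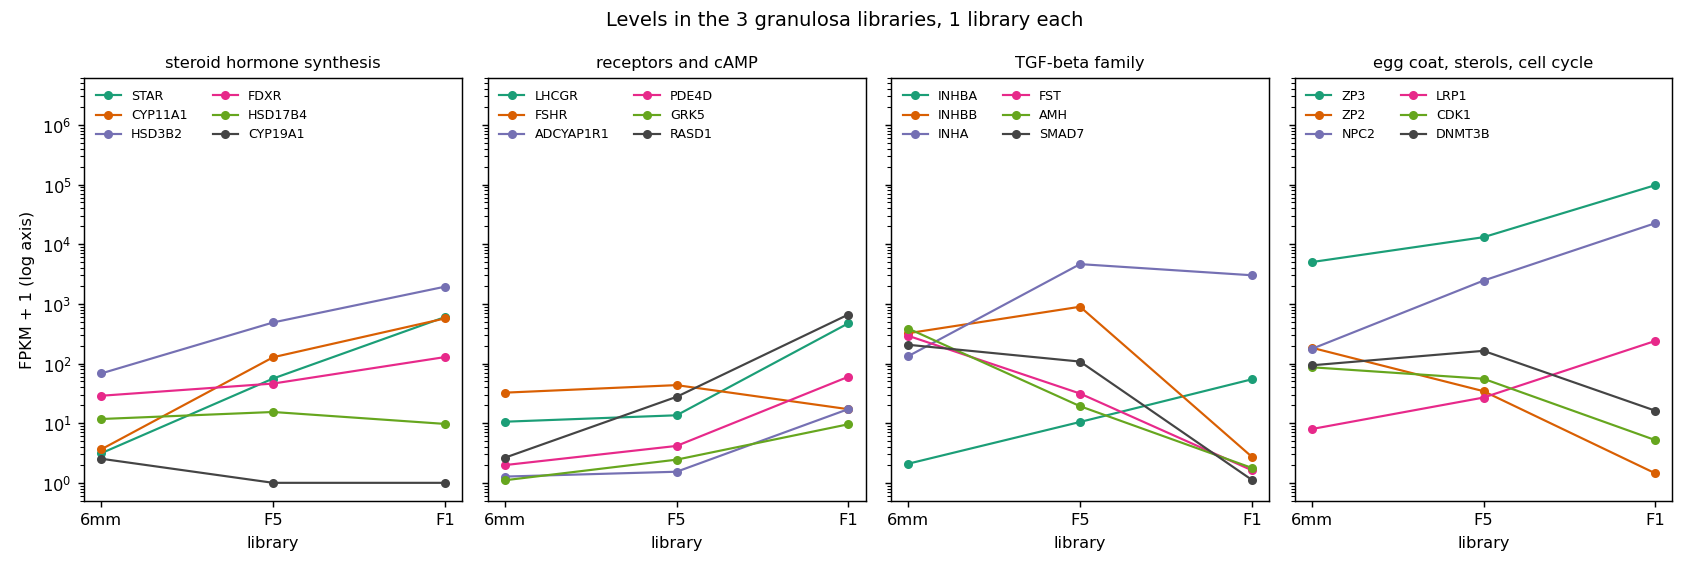
FPKM + 1 on a log y axis in the 6mm, F5 and F1 libraries on the x axis, in panels for steroid synthesis, receptors and cAMP, the TGF-beta family, and egg coat, sterol and cell cycle genes. Each point is 1 library and lines only join the points of a gene. LHCGR, PDE4D and RASD1 lie higher in F1 than in the other libraries, while INHBB, FST, AMH and SMAD7 reach their lowest values there.

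The route from cholesterol to progesterone was higher in F1 at each of its 3 main steps. STAR carries cholesterol into mitochondria and had an FPKM of 2.14, 55.1 and 599 in 6mm, F5 and F1, 10.9-fold higher in F1 (10.1 to 11.8). CYP11A1, which cleaves the cholesterol side chain, was at 2.65, 126 and 568 in 6mm, F5 and F1 (4.49-fold higher, 4.21 to 4.80). HSD3B2, which turns pregnenolone into progesterone, was at 67.3, 487 and 1938 in 6mm, F5 and F1 (3.98-fold higher, 3.92 to 4.04). All 3 were higher at each later stage, and HSD3B2 was already abundant in F5. CYP11A1 draws electrons through FDXR and an adrenodoxin, and FDXR was at 27.8, 45.1 and 127 in 6mm, F5 and F1 (2.82-fold higher, 2.67 to 2.97). An entry with an adrenodoxin domain on chromosome 4, which the files describe as ferredoxin 1-like, was at 8.56, 178 and 1005 in 6mm, F5 and F1, which is 5.64-fold higher (5.41 to 5.89), whereas the entry that carries the symbol FDX1 had 13.4 in F5 and 9.56 in F1. CYB5A, an electron donor of microsomal steroid enzymes, was at 39.5 in F5 and 96.7 in F1. Of 15 measured genes of the list, 6 were 2-fold higher against 5.09% of all genes, 2 were lower, and the median was 0.22.

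The regulators of this route were not all on the same side. NR5A1, the nuclear receptor SF-1 that drives steroidogenic genes, stood at 53.5, 323 and 628 in 6mm, F5 and F1, just inside 2-fold at a difference of 0.96. NR5A2, its close relative, had 0.255, 123 and 143 in 6mm, F5 and F1, so it was low in 6mm and nearly level between F5 and F1. NR0B1, known as DAX1, which represses NR5A1 targets, had 61.2, 33.6 and 4.88 in 6mm, F5 and F1 (6.89-fold lower, 5.35 to 8.98). TSPO, a mitochondrial outer membrane protein linked to cholesterol import, was at 22.2 in F5 and 7.76 in F1. Of 10 measured enzymes of androgens and oestrogens 4 were lower and 1 was higher (median -0.71), and under median-ratio scaling 3 were lower and 1 was higher. HSD17B1, which reduces oestrone to oestradiol, was at 132, 38.3 and 4.33 in 6mm, F5 and F1 (8.84-fold lower, 6.34 to 12.6). AKR1D1, a steroid 5-beta-reductase, was at 52.5, 9.09 and 0.659 in 6mm, F5 and F1, and CYP17A1, needed for androgens, at 2.12, 3.66 and 0.173 in 6mm, F5 and F1. CYP19A1, the aromatase, is listed at 0 in F5 and in F1.

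Cholesterol synthesis stood out among the metabolic lists. Of 18 measured enzymes, 13 were at least 2-fold higher in F1, against 5.09% of all genes, and 1 was lower, with a median of 1.51. Under the 5 other scalings 12 or 13 enzymes were higher. HMGCS1, which makes the mevalonate precursor HMG-CoA, had an FPKM of 27.9, 39.1 and 380.5 in 6mm, F5 and F1 (9.72-fold higher, 9.12 to 10.4). MSMO1, a sterol demethylase, was at 53.9, 57.7 and 288 in 6mm, F5 and F1, and DHCR7, the last reductase, at 16.3, 17.2 and 129 in 6mm, F5 and F1, 7.51-fold higher in F1 (6.90 to 8.19). The difference was not shared by the whole pathway. FDFT1, the squalene synthase, had 263 in F5 and 274 in F1, and EBP, a sterol isomerase, was lower at 6.09 in F5 and 1.60 in F1.

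Sterol handling showed a narrower set of higher genes. NPC2, the lysosomal protein that hands cholesterol out of lysosomes, was the runner-up transcript of the F1 library by FPKM, at 175, 2452 and 22487 in 6mm, F5 and F1 (9.17-fold higher, 9.08 to 9.26). STARD4, a cytosolic sterol carrier, was at 4.22 in F5 and 15.5 in F1, and SCARB1, the receptor of high-density lipoprotein, at 7.37 in F5 and 24.2 in F1. SCAP, which escorts the sterol-sensing transcription factors, was at 33.3, 127 and 376 in 6mm, F5 and F1, and SREBF2, the factor that switches on cholesterol synthesis, at 52.7, 158 and 319.8 in 6mm, F5 and F1 (2.02-fold higher, 1.96 to 2.08). INSIG1, which retains SCAP and is itself a target of these factors, had 50.3 in F5 and 50.4 in F1, a difference of 0.00. Of 15 measured genes 5 were higher and 2 lower, APOA1 with 2224 in F5 and 1024 in F1 and OSBPL1A with 11.8 in F5 and 3.90 in F1. Under scaling to the same sum of FPKM 4 were higher and 3 lower. Under median-ratio scaling, trimmed-mean scaling and centring 7 were higher and none was lower. LRP1, a large endocytic receptor of the low-density lipoprotein family, is spread over 4 entries on unplaced scaffolds. The entry named LRP1 had 6.97, 25.9 and 238 in 6mm, F5 and F1 (9.19-fold higher, 8.88 to 9.52), and the 3 entries given that symbol by the KEGG column were 10.2-fold, 13.3-fold and 14.1-fold higher. Which of them belong to the gene was not tested.

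Fatty acid genes differed in both directions. Over the 25 measured genes of the list, 4 were higher and 7 lower (median -0.27). FADS2, a desaturase, was at 4.27 in F5 and 22.9 in F1 (5.38-fold higher, 4.45 to 6.54), SCD at 19.6 in F5 and 79.9 in F1 and ACLY, which supplies cytosolic acetyl-CoA, at 67.6 in F5 and 265 in F1. FASN, the fatty acid synthase, was within 2-fold at 56.8 in F5 and 67.9 in F1, as was ACACA, acetyl-CoA carboxylase, with 26.2 in F5 and 21.6 in F1 at its entry on chromosome 19. A short entry on an unplaced scaffold with the same symbol was lower, at 12.4 in F5 and 0.871 in F1 (14.2-fold lower, 5.25 to 53.9). LPL, which frees fatty acids from lipoproteins, was at 147, 72.1 and 184 in 6mm, F5 and F1. The fatty acid-binding proteins FABP4 and FABP5 and the lipases CEL and LIPG were lower. CEL, a lipase activated by bile salts, stood at 0, 305 and 2.82 in 6mm, F5 and F1 (108-fold lower, 85.5 to 139). FABP5 was at 2.52, 162 and 1.09 in 6mm, F5 and F1, 149-fold lower in F1 (96.0 to 244). FABP4 had 3.54, 42.6 and 0.150 in 6mm, F5 and F1, and its F1 value came from 1 read. CEL and both FABP genes were thus high in F5 alone among the 3 libraries. LIPG, the endothelial lipase, was at 97.0, 58.7 and 3.62 in 6mm, F5 and F1 (16.2-fold lower, 13.8 to 19.2).

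INHBB had the widest difference of log2(FPKM + 1) toward lower values in F1 of all genes that carry a symbol. INHBB, the beta-B subunit of activin B and inhibin B, had an FPKM of 321, 893 and 1.74 in 6mm, F5 and F1, from 9811 reads in F5 and 19 in F1 (515-fold lower, 329 to 855). INHBA, the beta-A subunit, went the other way at 1.09, 9.48 and 53.3 in 6mm, F5 and F1 (5.63-fold higher, 4.88 to 6.52). INHA, the alpha subunit that turns activins into inhibins, was abundant in both at 132, 4631 and 3013 in 6mm, F5 and F1, a difference of -0.62. F5 thus held mainly beta-B and F1 mainly beta-A beside the alpha subunit, and the summed beta subunits were far lower in F1. FST, which binds activins, was at 290.1, 30.4 and 0.625 in 6mm, F5 and F1 (48.5-fold lower, 33.7 to 72.8), and AMH, anti-Müllerian hormone, at 384, 18.2 and 0.779 in 6mm, F5 and F1 (23.4-fold lower, 16.3 to 34.7). Both were lower at each later stage. FSTL1, a secreted relative of FST, was at 400.2, 473 and 62.3 in 6mm, F5 and F1. Of 12 measured genes of the list 5 were lower and 1 was higher (median -0.57).

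Among the signal transducers of the TGF-beta superfamily, SMAD3 and SMAD7 lay far apart. SMAD3, which carries activin and TGF-beta signals, was at 29.0, 33.4 and 176 in 6mm, F5 and F1 (5.26-fold higher, 4.996 to 5.55). SMAD7, an inhibitor of the same receptors, has 2 entries. That on chromosome Z had an FPKM of 205, 107 and 0.122 in 6mm, F5 and F1, with 3 reads left in F1 (872-fold lower, 298 to 4230.4). The other, on an unplaced scaffold, had 13.4 in F5 and 10.7 in F1, so the size of the SMAD7 difference rests on which entry is read. BAMBI, a decoy receptor, was at 83.0 in F5 and 20.1 in F1, and GREM1, which binds and blocks bone morphogenetic proteins, at 0.237, 1.42 and 23.6 in 6mm, F5 and F1 (16.6-fold higher, 10.2 to 29.0). Across 18 measured genes of BMP and TGF-beta signalling, 3 were higher, 6 were lower, and the median was -0.43, close to that of all genes.

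WNT genes were lower as single members rather than as a list. WNT4, a ligand that granulosa cells are known to need in mammals, had an FPKM of 141, 1885 and 14.3 in 6mm, F5 and F1 (132-fold lower, 118 to 149). RSPO3, a secreted enhancer of WNT signalling, was at 1.67, 26.4 and 0.0739 in 6mm, F5 and F1, with 2 reads in F1. WNT6 was at 104, 27.2 and 1.10 in 6mm, F5 and F1 (24.7-fold lower, 15.8 to 40.7), and FZD1, a receptor, at 50.6 in F5 and 7.89 in F1. CTNNB1, beta-catenin, was at 96.5 in F5 and 41.0 in F1 (2.35-fold lower, 2.23 to 2.48). FZD8, another receptor, was the 1 higher member at 1.69 in F5 and 6.23 in F1. Of 25 measured genes 8 were lower, against 22.9% of all genes, and the median was -0.71. Under median-ratio scaling 4 were lower and 2 higher. In the hedgehog pathway IHH, a ligand, was at 235, 728 and 83.2 in 6mm, F5 and F1 (8.76-fold lower, 8.23 to 9.34).

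Ligands and binding proteins of the insulin-like and related growth factors included members higher and lower in F1. STC1 and STC2, secreted stanniocalcins of which STC2 inhibits the protease PAPPA in mammals, were higher. STC1 had an FPKM of 11.8, 55.5 and 555 in 6mm, F5 and F1 (10.00-fold higher, 9.19 to 10.9), and STC2 had 1.01, 1.66 and 20.4 in 6mm, F5 and F1. PAPPA, which cleaves IGF-binding proteins, was at 0.361 in F5 and 2.82 in F1, whereas PAPPA2, its relative, was at 6.54 in F5 and 0.351 in F1. IGFBP5 was at 35.5 in F5 and 176 in F1, and IGFBP4 was nearly level at 2011 in F5 and 1824 in F1. IGF2, the growth factor itself, was at 50.2, 131 and 6.34 in 6mm, F5 and F1 (20.7-fold lower, 17.8 to 24.3). RFLB, an entry on chromosome Z that the KEGG column describes as relaxin 3, was 1 of the most abundant transcripts of F5 at 1268, 6712 and 1658 in 6mm, F5 and F1 (4.05-fold lower, 3.98 to 4.11). Of the list's 13 measured members, which do not include RFLB, 6 were higher and 2 lower (median 0.56). Without the filter on low values, however, the median was -0.05.

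Nuclear receptors and transcription factors of the granulosa layer were mostly within 2-fold between the libraries. ESR1, the oestrogen receptor alpha, stood on the higher side at 0.521, 1.34 and 17.0 in 6mm, F5 and F1 (12.7-fold higher, 9.13 to 18.02). GATA4, a factor of gonadal somatic cells, had 207 in F5 and 106 in F1. WT1, NR2F1 and NR2F2, factors of early gonadal and stromal cells, were lower, WT1 at 2.21 in F5 and 0.579 in F1, NR2F1 at 46.9 in F5 and 12.5 in F1 and NR2F2 at 3.65 in F5 and 0.619 in F1. EMX2, a homeobox factor of the urogenital tract, was at 57.9 in F5 and 11.4 in F1. Of 20 transcription factors 4 were lower and 1 was higher (median -0.22), and of 24 nuclear receptors 6 and 1 (median -0.16). STAT6, which reads cytokine signals, was at 3.75 in F5 and 66.8 in F1 (17.8-fold higher, 13.1 to 24.8). CEBPB, a factor that LH induces in mammalian granulosa cells, was at 35.7, 19.5 and 1.87 in 6mm, F5 and F1 (10.4-fold lower, 6.96 to 16.2). The retinoid-degrading enzyme CYP26A1 had 4.12, 60.9 and 2.77 in 6mm, F5 and F1. STRA6, which takes up retinol, had 9.08, 153 and 340.0 in 6mm, F5 and F1, so CYP26A1 and STRA6 differed in opposite directions between F5 and F1. Of 12 measured retinoid genes 1 was higher and 4 were lower (median -0.23).

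Genes of cell division were lower as a body. Of 55 measured genes of the kinetochore, spindle and cytokinesis 53 were at least 2-fold lower in F1, against 22.9% of all genes, with a median of -2.09. Mitotic kinases, cyclins and the anaphase-promoting complex gave 31 of 36 (median -2.08), replication licensing and forks 36 of 44 (median -1.44) and DNA repair 22 of 39 (median -1.10), and none of these lists had a higher member. With the median gene set to 0 the counts were 45, 25, 20 and 16. CDK1, the kinase that starts mitosis, had an FPKM of 85.5, 54.5 and 4.203 in 6mm, F5 and F1 (12.97-fold lower, 10.0 to 17.0). BIRC5, a survivin of the chromosomal passenger complex, was at 44.8 in F5 and 3.80 in F1, NUF2 of the kinetochore at 33.4 in F5 and 2.06 in F1 and CDT1, which licenses replication origins, at 74.4 in F5 and 6.32 in F1 (11.8-fold lower, 9.60 to 14.6). POLQ, a polymerase that joins broken ends, was at 7.65 in F5 and 0.161 in F1. CENPO, of the kinetochore, stood apart at 866, 1660.0 and 1152 in 6mm, F5 and F1, a level far above that of the other members in all 3 libraries.

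Nucleotide supply and chromatin copying went with the division genes only in part. RRM2 and TK1, which make and salvage deoxynucleotides for replication, had 45.3 in F5 and 2.52 in F1 and 57.4 in F5 and 3.86 in F1. The other members were mixed, and 9 of 23 were lower and 1 was higher (median -0.62). DNMT3B, a DNA methyltransferase that sets new methylation, was at 92.3, 162 and 15.2 in 6mm, F5 and F1 (10.7-fold lower, 9.97 to 11.4), and UHRF1, which maintains methylation through replication, at 16.4 in F5 and 1.62 in F1. Of 64 chromatin modifiers 11 were lower and 2 higher, and their median of -0.62 was close to that of all genes. The D cyclins and cell cycle brakes had 5 of 20 lower, against 22.9% of all genes, and none higher (median -0.44). Under median-ratio scaling, trimmed-mean scaling and centring 2, 1 and 1 of them were lower.

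**Figure D4:**
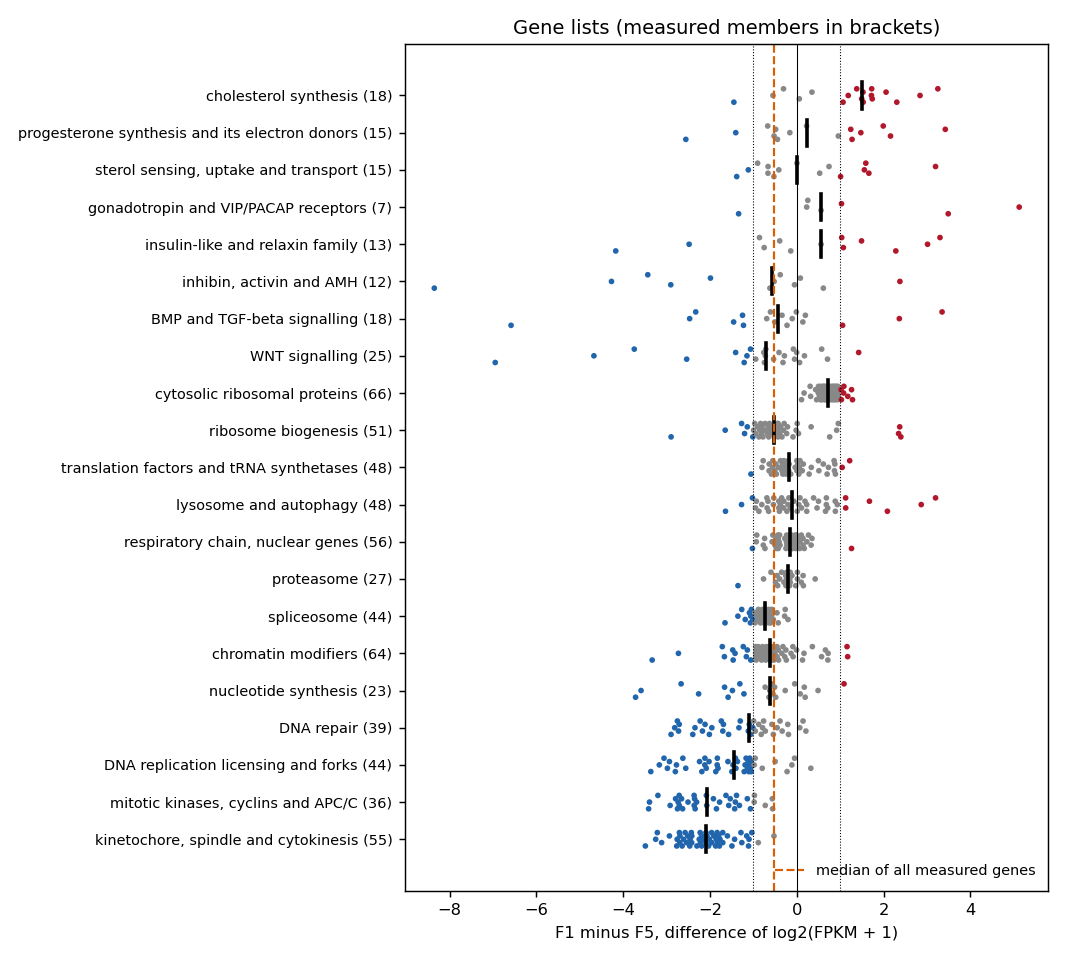
The F1 minus F5 difference of log2(FPKM + 1) on the x axis for every measured member of 21 gene lists on the y axis. Each point is a gene, red at 2-fold or more higher and blue at 2-fold or more lower, black bars are list medians and the dashed line is the median of all measured genes, -0.53. The cholesterol synthesis and ribosomal protein medians lie right of 0, and the 4 cell division and DNA repair lists lie left of the dashed line.

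Cytosolic ribosomal proteins lay above the median gene. All 66 measured cytosolic ribosomal proteins lay above 0 with the values as deposited, from 0.11 to 1.28, and 65 did under scaling to the same sum of FPKM. As deposited, 7 of them reached 2-fold, and the median was 0.72. That count was 3 under scaling to the same sum of FPKM and 25 without the 10 most abundant genes of either library in the totals. It was 62 under median-ratio and under trimmed-mean scaling and 60 with the median gene set to 0. Their summed FPKM was 30444 in F5 and 51919 in F1. RPLP0, of the ribosomal stalk, was at 1406 in F5 and 3421 in F1, and RPL6 at 481 in F5 and 1154 in F1. EEF1B2, an elongation factor subunit, was at 559 in F5 and 1301 in F1. Ribosomal proteins have near-identical copies in the genome, and the sources used here do not say whether the authors' counting split reads among them. Of 48 translation factors and tRNA synthetases 2 were higher and 1 was lower (median -0.18). The factors that assemble ribosomes were not higher as a list, with 3 of 51 higher, 6 lower and a median of -0.52. Within it RRP12, RRP15 and RRP1B were the higher ones, at 2.22 in F5 and 15.9 in F1, at 0.607 in F5 and 7.31 in F1 and at 0.610 in F5 and 7.18 in F1.

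Other house-keeping machines lay between these. The spliceosome had 9 of 44 lower, none higher and a median of -0.74, the proteasome 1 of 27 lower with a median of -0.21 and the nuclear genes of the respiratory chain a single gene past 2-fold on each side among 56, with a median of -0.15. Lysosome and autophagy genes had 6 of 48 higher and 3 lower (median -0.11). Besides NPC2, the higher lysosomal genes included CTSA, protective protein and cathepsin A, at 462, 3197 and 6981 in 6mm, F5 and F1, GLA, an alpha-galactosidase, at 24.2 in F5 and 106 in F1, and ATP6AP1, an accessory subunit of the proton pump, at 9.53 in F5 and 75.8 in F1 (7.95-fold higher, 6.38 to 10.0). Of 27 genes of glycolysis 2 were higher and 3 lower (median 0.09). HK2, a hexokinase, was at 3.29 in F5 and 34.0 in F1, LDHA, lactate dehydrogenase, at 49.8 in F5 and 15.2 in F1 and PFKFB3, which raises the flux through phosphofructokinase, at 38.8, 188 and 37.6 in 6mm, F5 and F1. The 19 reference genes ranged from -1.78 to 1.28 with a median of -0.42. Of them 13 lay below 0, 1 was 2-fold higher and 1 was 2-fold lower. Among the nearly level ones ACTB had 1574 in F5 and 1747 in F1, GAPDH 1130.4 in F5 and 1290.0 in F1 and PPIA 1004 in F5 and 885 in F1.

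Basement membrane, protease and ovulation genes differed gene by gene. The basal lamina separates the granulosa layer from the theca. Among 25 measured matrix genes there were 9 lower and 1 higher, and the median of -0.59 was near that of all genes. LOXL2, which cross-links collagen, was at 8.68 in F5 and 0.157 in F1, FBN1, fibrillin, at 5.73 in F5 and 0.136 in F1 and COL4A3, a basement membrane collagen, at 251 in F5 and 118 in F1. Of 15 ovulation and prostaglandin genes 4 were higher and 4 lower (median -0.33). ADAMTS1, a protease that progesterone induces in mammals, was at 22.6 in F5 and 1.22 in F1, and SERPINE2, a protease inhibitor, at 19.5 in F5 and 0.906 in F1 (21.6-fold lower, 14.6 to 33.3). TIMP2, an inhibitor of metalloproteases, was at 20.9 in F5 and 100.2 in F1, and PTGS2, the inducible prostaglandin synthase, at 2.17, 0.708 and 4.32 in 6mm, F5 and F1 (6.10-fold higher, 4.33 to 8.79). EDN1, endothelin 1, was at 4.76 in F5 and 0.0632 in F1. VEGFA and PGF, which act on vessels, were level, with 152 in F5 and 158 in F1 for VEGFA and 855 in F5 and 949 in F1 for PGF. EPAS1, a hypoxia-inducible factor, was at 2.53, 0.300 and 36.0 in 6mm, F5 and F1 (120.1-fold higher, 66.9 to 241), while the hypoxia-responsive carbonic anhydrase CA9 was at 84.2, 50.9 and 2.72 in 6mm, F5 and F1 (18.7-fold lower, 13.9 to 25.8).

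Of 25 junction genes 4 were higher and 6 lower in F1, against 5.09% and 22.9% of all genes (median -0.28). CLDN5, a claudin of tight junctions, had an FPKM of 3.81, 5.87 and 108 in 6mm, F5 and F1 (18.5-fold higher, 14.0 to 24.8), and CLDN2 had 10.9 in F5 and 0.428 in F1. GJB1, a connexin, was at 3.59, 28.1 and 1.10 in 6mm, F5 and F1 (25.6-fold lower, 14.8 to 48.6), and CDH3, a cadherin, at 181, 68.3 and 9.53 in 6mm, F5 and F1. CDH4, another cadherin, was at 0.275 in F5 and 5.67 in F1. Among 26 ion channel genes 5 were higher and 11 lower (median -0.70, and 5 and 6 under median-ratio scaling), and all 5 higher ones were potassium channels. KCNJ5 was at 0.524, 0.301 and 26.8 in 6mm, F5 and F1 (89.0-fold higher, 40.6 to 244), KCNJ8 at 2.48 in F5 and 26.2 in F1 and KCNT1 at 5.13 in F5 and 22.4 in F1. KCNH2, a channel that repolarises excitable cells, was at 0.936, 139 and 312 in 6mm, F5 and F1. On the lower side SCN4B, a sodium channel subunit, was at 42.6 in F5 and 3.36 in F1, and CACNA1C, a calcium channel, at 24.5 in F5 and 4.29 in F1 (5.70-fold lower, 5.14 to 6.33). KCNAB1, a potassium channel subunit outside the list, was also lower, at 1.73, 30.4 and 0.892 in 6mm, F5 and F1 (34.1-fold lower, 21.4 to 57.9). SLC7A5, which imports large neutral amino acids, was lower at both of its entries, with 90.8 in F5 and 14.4 in F1 at that on chromosome 11.

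Genes that growth factors and hormones switch on for a short time were mixed. Of 18 measured EGF receptor ligands and feedback genes of the MAPK cascade 7 were lower, against 22.9% of all genes, and none was higher (median -0.66). Under median-ratio and trimmed-mean scaling 3 were lower and 1 was higher, and with the median gene set to 0 the counts were 2 and 1. DUSP1, a phosphatase that shuts off MAP kinases, was at 8.51, 9.36 and 1.00 in 6mm, F5 and F1 (9.36-fold lower, 7.002 to 12.7), and DUSP4 and DUSP7, of the same family, were at 6.95 in F5 and 1.89 in F1 and at 10.1 in F5 and 2.37 in F1. TGFA, a ligand of the EGF receptor, was at 10.8 in F5 and 3.81 in F1. In the 9 genes of the CREB family and its targets 2 were lower, CEBPB and SIK1, a kinase that cAMP induces, at 8.15 in F5 and 0.840 in F1. Of 15 immediate early genes 4 were higher and 2 lower. JUN, part of the AP-1 factor, was 2.29-fold higher in F1 (2.01 to 2.61), and CTGF, a matrix-associated target of Hippo signalling, was at 34.8 in F5 and 93.3 in F1, while ZFP36L1, which destabilises messenger RNA, was at 211 in F5 and 64.5 in F1 (3.27-fold lower, 3.01 to 3.56). Of 17 clock genes 6 were lower and none was higher (median -0.72), against 22.9% and 5.09% of all genes. Under median-ratio scaling, trimmed-mean scaling and centring 6 were lower each time, and 2, 3 and 2 were higher. BHLHE41, a repressor of the clock, was at 27.6 in F5 and 0.816 in F1, PER2 at 11.3 in F5 and 2.10 in F1 and CRY2 at 99.0 in F5 and 30.6 in F1. The hour of the ovulatory cycle at which each follicle was taken is not stated in the labels, and its part in these values was not tested.

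Genes of survival, redox balance and protein folding held single wide differences. Of 25 apoptosis and survival genes 8 were lower and 1 was higher (median -0.41), against 22.9% and 5.09% of all genes. Under median-ratio scaling, trimmed-mean scaling and centring 4 were lower and 2 higher. TNFRSF10B, a death receptor, was at 37.0 in F5 and 3.88 in F1, AIFM1, a mitochondrial flavoprotein, at 106 in F5 and 26.3 in F1 and BID, which links death receptors to mitochondria, at 39.8 in F5 and 11.9 in F1. Among 31 glutathione and antioxidant genes 6 were lower and 2 higher (median -0.31). Under median-ratio scaling, trimmed-mean scaling and centring 3, 2 and 3 were lower and 5, 5 and 4 higher. MGST3 and MGST1, membrane glutathione transferases, were at 385 in F5 and 96.5 in F1 and at 75.7 in F5 and 24.4 in F1, and NQO1, a quinone reductase, was at 52.5 in F5 and 19.1 in F1. The 42 chaperones and genes of the unfolded protein response had a median of -0.07, with 1 higher and 5 lower. The higher one was CANX, a lectin chaperone of the endoplasmic reticulum, at 84.3 in F5 and 252 in F1 (2.99-fold higher, 2.88 to 3.10), and EDEM1, which sends misfolded glycoproteins for degradation, was among the lower ones at 138 in F5 and 53.1 in F1. In the actin cytoskeleton list 6 of 32 were lower and 1 was higher (median -0.13), with TPM1, a tropomyosin, at 24.1 in F5 and 3.48 in F1, EZR, which ties actin to the membrane, at 26.3 in F5 and 4.74 in F1, and RND3, a GTPase that loosens stress fibres, at 5.34 in F5 and 30.1 in F1. ITGA6, a laminin receptor subunit, was at 25.7 in F5 and 8.02 in F1, and ITGB5 at 11.9 in F5 and 26.5 in F1. SLC1A4, a carrier of neutral amino acids, was 1 of 2 higher among 20 such transporters at 17.0 in F5 and 57.4 in F1, where 8 were lower. Under median-ratio scaling, trimmed-mean scaling and centring 4 of these transporters were higher and 4 lower.

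The genes with the widest gaps in F1's favour included several with no list above. CRIP1, a LIM domain protein, had an FPKM of 31.02, 1.78 and 193 in 6mm, F5 and F1 (108-fold higher, 66.5 to 190.0). RPH3A, which binds Rab GTPases on secretory vesicles, was at 5.09, 2.65 and 111 in 6mm, F5 and F1, and CADPS, which primes dense-core vesicles, at 11.8 in F5 and 67.0 in F1. Exocytosis genes as a list had 5 of 34 higher and 7 lower (median -0.28). HTRA1, a secreted serine protease that acts on TGF-beta family proteins, was at 16.4, 0.362 and 37.2 in 6mm, F5 and F1 (103-fold higher, 53.8 to 225). CYP1B1, a cytochrome that hydroxylates oestradiol, was at 1.04, 1.10 and 26.1 in 6mm, F5 and F1. ENTPD2, an ectonucleotidase, was at 1.06 in F5 and 28.2 in F1 and PIP5K1B, a lipid kinase, at 8.08 in F5 and 133 in F1. PCP4, which binds calmodulin, was at 0.749 in F5 and 39.1 in F1, its F5 value coming from 2 reads.

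On the lower side CTHRC1, a secreted protein with a collagen repeat, had 253, 464 and 11.7 in 6mm, F5 and F1 (39.7-fold lower, 33.1 to 47.9). COL14A1, a collagen that coats fibrils, was at 39.9, 238 and 10.6 in 6mm, F5 and F1 (22.6-fold lower, 21.1 to 24.1), and ADAMTS9, a matrix protease, at 49.9, 78.7 and 3.07 in 6mm, F5 and F1 (25.6-fold lower, 23.2 to 28.4). TMEM72, a membrane protein, stood at 1.27, 162 and 4.205 in 6mm, F5 and F1, and PHOSPHO1, a phosphatase known from mineralising cartilage, at 13.04, 113 and 4.43 in 6mm, F5 and F1. SPTSSB, a small subunit of serine palmitoyltransferase, had an FPKM of 22.0 in F5 from 531 reads and no reads in F1, which is at least 176-fold lower against a floor of 3 reads in the F1 library. DPYSL3, a cytoskeletal protein, was at 51.7 in F5 and 0.660 in F1.

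Some relatives stood on opposite sides. INHBA and INHBB, SMAD3 and SMAD7, and CLDN5 and CLDN2 are given above. HTRA3, a relative of HTRA1, was at 152, 209 and 9.93 in 6mm, F5 and F1 (21.0-fold lower, 19.0 to 23.3), the reverse of HTRA1. ADAMTS3, which trims procollagen, was at 1.24 in F5 and 18.4 in F1, against the lower ADAMTS9 and ADAMTS1. SLC6A4, the serotonin transporter, was at 2.49 in F5 and 24.8 in F1, and SLC5A5, the iodide transporter, at 243 in F5 and 22.5 in F1. The pairs were found by symbol stem at 4-fold on either side, so their opposite directions are how they were chosen.

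**Figure D5:**
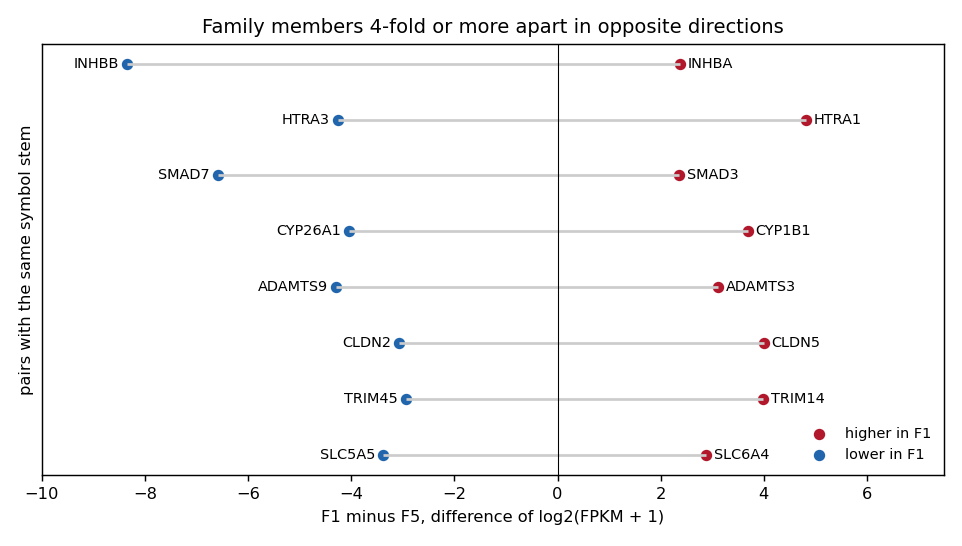
For 8 pairs of genes with the same symbol stem on the y axis, the F1 minus F5 difference of log2(FPKM + 1) of both genes on the x axis. Red points are 4-fold or more higher in F1 and blue points 4-fold or more lower. INHBB has the most negative point and HTRA1 the most positive point among the pairs drawn.

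The annotation terms of the files were read for the lists' range. Of Gene Ontology and Interpro terms with 15 to 300 measured genes, the medians furthest above that of all genes were those of the cytosolic ribosomal subunits, at 0.69 for the small (27 genes, 1 higher, 0 lower) and 0.69 for the large (39 genes, 4 higher, 2 lower). Sterol metabolic process held 11 higher genes among 38, 6 lower ones and a median of 0.01. The voltage-gated potassium channel complex had 7 of 24 higher and 6 lower. At the other end, condensed chromosome kinetochore had 19 of 26 lower (median -1.95) and DNA replication initiation 13 of 18 (median -1.91). Secreted signals were low as well, with growth factor activity at 12 of 23 lower and 2 higher (median -1.19), the Kazal domain of protease inhibitors and follistatins at 12 of 17 lower and 2 higher (median -1.37), and frizzled binding at 9 of 18 lower and none higher (median -1.03). Hormone activity had 11 of 28 lower and 5 higher, against 22.9% and 5.09% of all genes.

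The 6mm value was set beside the genes 4-fold higher and those 4-fold lower in F1. Both groups were taken for F1 lying far from F5, so that choice itself makes a 6mm value past F1 rare. Of the 168 genes 4-fold higher in F1, the 6mm value was below both later libraries for 91, between them for 74 and above both for 3, and their median FPKM was 2.97 in 6mm, 3.01 in F5 and 31.9 in F1. Of the 612 genes 4-fold lower, the 6mm value was above both for 304, between them for 279 and below both for 29, with medians of 16.0, 15.4 and 1.37. The group medians were thus close in 6mm and F5, while single genes were not. AMH was at 384 in 6mm and 18.2 in F5, and CEL at 0 in 6mm and 305 in F5. Crossings of low and high levels were few. Of genes under an FPKM of 1 in F5, 14 reached 10 in F1, and 69 genes at 10 or more in F5 were under 1 in F1. By chromosome, 49 of 518 measured genes on chromosome Z (9.46%) and 19 of 168 on chromosome 26 (11.3%) were 2-fold higher, against 5.09% of all. These shares were picked as the highest among the larger nuclear chromosomes. The shares 2-fold lower were 23.0% on chromosome Z and 24.4% on chromosome 26, against 22.9% of all. Among genes at an FPKM of 100 or more in both libraries the smallest differences were those of SNX17, a sorting nexin, at 116 in F5 and 115 in F1, and the phosphate carrier SLC25A3, at 160.4 in F5 and 160.0 in F1.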

How the data were processed

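The authors deposited FPKM values per gene for each library, with positions, names and annotation. Per the submitters' processing notes the tools were TopHat2 2.0.12 and HTSeq 0.6.1, and genome build and strand are not stated in the sources used here. Lines without a gene identifier were left out. Symbols came from the name column or, failing that, the KEGG column, which holds for CRIP1, FDXR, FDX1, ACLY, WNT6, CLDN5, COL14A1, CD74, PTGS2, SLC5A5, BHLHE41, ZFP36L1, TNFRSF10B, KCNT1, SLC7A5 on chromosome 11 and SMAD7 on chromosome Z, and such names are less certain. Genes at an FPKM of 1 or more in either library were compared by the difference of log2(FPKM + 1), which understates the difference of low genes. Whole reads were recovered from the FPKM steps and covered 93.8% of the read total in F5 and 94.8% in F1. They are the smallest whole numbers that match, so a gene's reads can be too few by a common factor and its interval too wide. Exact 95% intervals of FPKM ratios (conditional binomial, Clopper-Pearson) rest on these reads and cover counting error only. A floor of 3 reads stood in for no reads only where a fold against such a gene is given, not in intervals or differences. The scripts were tested on simulated data. No test across genes was possible with 1 library a stage.

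The genes compared and the 57 gene lists were chosen with earlier results of these data known. Named genes were, per direction, the 30 with a symbol and the widest difference at an FPKM of 10 or more, a core set, up to 6 members per list (FPKM of 5 or more) and 4 per annotation term, the 15 most abundant per library, opposite pairs by symbol stem and the 10 closest abundant genes. ACACA, ACTB, CENPO, CYB5A, CYP17A1, EBP, EDN1, FASN, FDFT1, GAPDH, IGFBP4, INSIG1, KCNH2, KDR, LPL, NR2F2, PAPPA, PDE10A, PGF, PPIA, PTPRC, RGS5, RGS16, SCD, WT1, ZP4 and the ferredoxin 1-like entry were added after their values were seen. Some genes that the rule takes are left out of the text. Alternatives were pseudocounts of 0.1 and 5, no filter, a filter at an FPKM of 5 and 5 scalings. Work was done in Python 3.11.15 with pandas 2.3.3, NumPy 2.4.6, SciPy 1.17.1 and matplotlib 3.10.9.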

Additional observations from a re-analysis of the deposited data

How the results depend on the processing

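Scaling and pseudocount set the counts. With a pseudocount of 0.1, 317 genes were 4-fold higher in F1 and 1363 lower. With a pseudocount of 5, 329 were 2-fold higher and 1095 lower, and 87 and 172 passed 4-fold. Median-ratio scaling gave 1203 higher and 1331 lower at 2-fold and 293 and 360 at 4-fold, trimmed-mean scaling 1241 and 1290, and 297 and 348, and centring on the median gene 1226 and 1132, and 316 and 304. The last sets the median gene to 0 by construction. At 4-fold, 163 of 168 higher genes (97.0%) and 291 of 612 lower genes (47.5%) kept their difference under all 5 scalings.

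Of 622 genes followed singly, none that was 2-fold as deposited reversed its direction. The alternatives moved the median of all genes by at most 0.56, so no 2-fold gene could turn, and this is no check on them. Of 96 annotation terms, none whose median was 0.5 or more in size reversed, but the terms were taken for their extreme medians. Values nearer 0 can turn. Over the genes that pass the filter on the deposited values, the medians of 23, 24 and 24 of 57 lists changed sign under median-ratio scaling, trimmed-mean scaling and centring, most of them medians under 0.5 in size, such as those of the TCA cycle (-0.32 as deposited, 0.26 under median-ratio scaling) and the proteasome (-0.21 and 0.38). Among list medians of 0.5 or more in size these turned, with the filter applied after scaling. Under median-ratio, trimmed-mean and centring respectively, the VEGF and hypoxia list came to 0.054, 0.079 and 0.025 and leukocyte markers to 0.083, 0.096 and 0.027. Under median-ratio and trimmed-mean scaling, the CREB family came to 0.032 and 0.057 and basal lamina and matrix to 0.00073 and 0.028. Over the genes of the deposited filter, leukocyte markers stayed below 0 at -0.085 and -0.067 under median-ratio and trimmed-mean scaling. Trimmed-mean scaling turned NOTCH and hedgehog (0.022, but -0.21 over the genes of the deposited filter) and cAMP synthesis (0.0044), and centring turned ribosome biogenesis (0.012). The insulin-like and relaxin family came to -0.047 when unfiltered and -0.14 with only genes at an FPKM of 5 or more kept, a limit that turned theca and smooth muscle markers to 0.84. The scalings shift every gene, and the filters leave fewer or more genes. No paired analysis was possible because each stage has 1 library. Promoter motifs were planned and not run. Depth was nearly equal, and low genes have the widest intervals.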

Other observations

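The loci below carry no symbol in the files and were chosen after their values were seen, and their positions are those of the files, whose genome build the sources used here do not state. On chromosome 1 a cluster of short unnamed entries was far higher in F1. The entry at 100373556 to 100373705 had an FPKM of 407 in F5 and 14161 in F1, a ratio of 34.8 (32.5 to 37.3), which made it 1 of the 15 most abundant of that library. Its neighbour at 100377572 to 100378827 stood at 104.4 and 1432, and the next, at 100380622 to 100382124, at 3.06 and 66.1. The entry before them, at 100354388 to 100354975, was not higher, with 88.5 in F5 and 57.3 in F1. Short entries have few positions for reads, so FPKM values there rest on the assumed length.

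On chromosome 4 a pair of neighbouring entries was higher in F1 too. That at 76600159 to 76601874, for which the files list retroviral capsid domains, had an FPKM of 12.1 at F5 and 259.9 at F1 (19.1 to 24.3 for a ratio of 21.5). That at 76596122 to 76596615 had 0.573 in F5 from 4 reads and 27.2 in F1. On chromosome 8 the entry ENSGALG00000028221, which the KEGG column describes as like selenoprotein P, a selenium carrier, had 0.711, 0.375 and 96.7 in 6mm, F5 and F1, with 4 reads in F5 (ratio 258, 100.3 to 947.5).

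Among the mitochondrial entries, that at 1297 to 2272 had an FPKM of 30.1 in F5 and 1637 in F1, while that at 2346 to 3966 had 916 and 1420.1. The 11 mitochondrial genes with a symbol had differences from -0.84 to 0.38 with a median of -0.38. Poly-A capture selects transcripts by their tail, and whether its yield differed between the libraries was not tested.

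Ribosomal RNA processing genes named RRP were split. RRP36 had 2.07, 1.34 and 24.2 in 6mm, F5 and F1 and RRP7A had 1.24, 1.53 and 18.8 in 6mm, F5 and F1, and with RRP12, RRP15 and RRP1B they were all over 7-fold higher in F1 by the FPKM ratio, whereas RRP9 had 12.6 in F5 and 22.0 in F1 and RRP8 had 18.7 in F5 and 9.79 in F1. NOC4L, of the same pathway, was lower at 92.7 in F5 and 11.6 in F1. A fold this size was not seen in the ribosome biogenesis list as a whole, whose median was -0.52.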
